A study of Homo sapiens with 6 samples.

Results

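RNA polymerase I (Pol I) and RNA polymerase II (Pol II) were compared within the solvent control of a ChIP-seq series in LNCaP cells, an established human line of androgen-responsive prostate cancer cells that come from a metastasis. The comparison uses all listed peaks of 2 libraries, 42547 Pol I peaks and 28798 Pol II peaks, which make 71345 of the 84817 peaks that the 4 peak lists of the series hold. The cells of both libraries had received the solvent DMSO, set against 1 µM of the Pol I inhibitor BMH-21 for 6 h in the other lists. They were grown in RPMI-1640 medium with serum. Pol I was precipitated with an antibody that the labels name only as C-1, its target being given by the sample title, and Pol II with the 4H8 antibody, which the labels describe as directed against serine 5 phosphate on the C-terminal repeat. Each antibody had 1 library, so no difference has a replicate error and no test was made. Intervals are exact Clopper-Pearson 95% intervals for shares and order-statistic 95% intervals for medians, and both cover counting error over peaks only.

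Pol I is known for a single main task, the synthesis of the ribosomal RNA precursor in the nucleolus from repeated genes on the short arms of the acrocentric chromosomes. Pol II makes messenger RNA and many noncoding RNAs. Its largest subunit ends in a tail of repeats, and phosphate on serine 5 of the repeat is placed as transcription begins and is typically most abundant near gene starts. The ribosomal RNA repeats are largely absent from the hg19 build on which the peaks lie, so the lists say little about them. No gene annotation of hg19 was used here. Regions are therefore named by coordinates, and neither the promoter share of the peaks nor the markers of the cell type were examined.

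Both lists covered 24 chromosomes and, with them, 3008 Mb from the first to the last listed peak of each. Pol I peaks covered 21.6 Mb (0.718% of this span) at 14.1 peaks per Mb, and Pol II peaks 16.8 Mb (0.559%) at 9.57 per Mb. Median widths were close, at 464 bp for Pol I (quartiles 384 and 579) and 498 bp for Pol II (quartiles 407 and 658). Spacing within a list differed more. The median gap between neighbouring peaks was 32.1 kb for Pol I and 12.2 kb for Pol II, and 19.9% of the Pol II gaps were under 1 kb against 6.79% of the Pol I gaps. The third quartile of the gaps was similar, at 83.8 kb for Pol II and 79.1 kb for Pol I, so the closer spacing of Pol II peaks was in the shorter gaps. Read depth is unknown, since the lists give no counts.

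Each peak carries a running number along the chromosomes, and both lists skip numbers. The numbers ran to 55470 for Pol I, of which 12923 (23.3%) are not listed, and to 55439 for Pol II, of which 26641 (48.1%) are not listed. Judged by the highest number, the peak sets were of nearly equal size, with a Pol I to Pol II ratio of 1.00, whereas the listed peaks gave a ratio of 1.48. A skipped peak of the other antibody could lie beside or under a listed one. Statements on loci with only 1 polymerase therefore refer to listed peaks, and the main counts are given also for peaks where the other list skips no number. Bins and dense runs were counted over listed peaks only.

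At shared sites the listed peaks of both antibodies coincided closely. Of the Pol I peaks, 5948 (13.98%, interval 13.7 to 14.3) shared a base with a Pol II peak, and 5902 Pol II peaks (20.5%, interval 20.03 to 20.97) shared one with a Pol I peak. Together the lists had 2.54 Mb in common. Of the bases under Pol I peaks, 11.8% were also under Pol II peaks, 21.1 times the 0.559% of the span that Pol II peaks cover. Nearly all shared sites were simple: 5703 of the 6003 overlapping pairs joined a single peak of each list. The largest number of Pol I peaks on a Pol II peak was 3, and 100 Pol II peaks carried 2 or more.

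The paired peaks lay on top of each other rather than side by side. The median overlap was 415 bp (quartiles 343 and 491), and the shorter peak was wholly covered in 3075 pairs (51.2%). The Pol I peak lay inside the Pol II peak in 27.7% of the pairs, and the Pol II peak inside the Pol I peak in 23.5%. The midpoints were a median of 66.5 bp apart (quartiles 29 and 140), and 3855 pairs (64.2%) had midpoints within 100 bp.

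**Figure D1:**
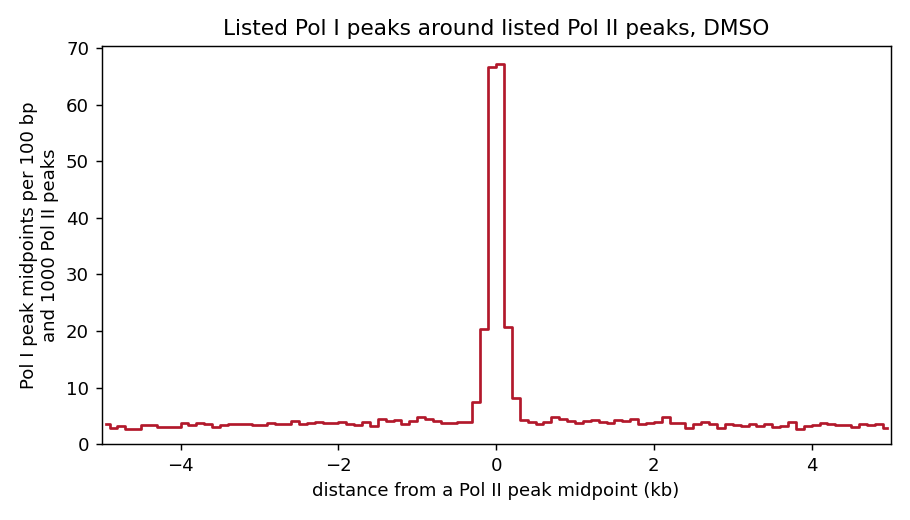
Number of Pol I peak midpoints (y axis, per 100 bp step and 1000 Pol II peaks) by distance from the midpoint of a Pol II peak (x axis, kb), for all listed DMSO peaks. The 2 steps beside the midpoint hold 66.6 and 67.1 Pol I midpoints, and beyond about 0.3 kb the line is nearly flat.

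The profile of Pol I midpoints around Pol II midpoints was steepest within 250 bp. Within 100 bp of a Pol II midpoint there were 669 Pol I midpoints per Mb, and between 100 and 250 bp there were 165 per Mb. Between 250 and 500 bp the density was 46.0 per Mb, and from 500 to 1000 bp it was 41.6 per Mb, so the innermost density was 16.1 times that of this last ring. Farther out the density declined slowly, from 39.2 per Mb between 1 and 2 kb to 32.8 between 5 and 10 kb, 26.0 between 50 and 100 kb and 18.3 between 500 and 1000 kb. The mean of the whole list was 14.1 per Mb. Around Pol II peaks there was thus a narrow summit at the peak and a broad shoulder of 1.30 to 2.94 times the list mean from 0.5 kb to 1 Mb.

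The nearest neighbours were asymmetric. The median distance from a Pol I midpoint to the nearest Pol II midpoint was 29.5 kb (interval 28.7 to 30.3), with quartiles of 4.39 and 99.7 kb. From a Pol II midpoint to the nearest Pol I midpoint it was 7.86 kb (interval 7.66 to 8.06), with quartiles of 1.29 and 20.7 kb. Of the Pol I midpoints, 33.5% had a Pol II midpoint nearer than 10 kb and 75.1% nearer than 100 kb, against 55.8% and 97.97% in the reverse direction. The farthest Pol I peak was 2.43 Mb from a Pol II peak, and the farthest Pol II peak was 0.747 Mb from a Pol I peak. The Pol I list is the longer and the more evenly spaced one, and the part of this in the distances was not tested.

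The scores of paired peaks were nearly unrelated. A score is a value the authors deposited for each peak, starts at 50 and served here only to rank peaks of the same list. Over the 6003 pairs, Spearman's rho between the Pol I and Pol II scores was 0.02 and Pearson's r of the log10 scores was 0.01, which describes pairs from 2 libraries and is no test. Among the 877 pairs whose Pol I peak stood in the highest 10% of its list by score, 163 (18.6%) had a Pol II peak in the highest 10%, against 18.3% of all pairs. Widths were related a little more closely, with a Spearman's rho of 0.14.

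**Figure D2:**
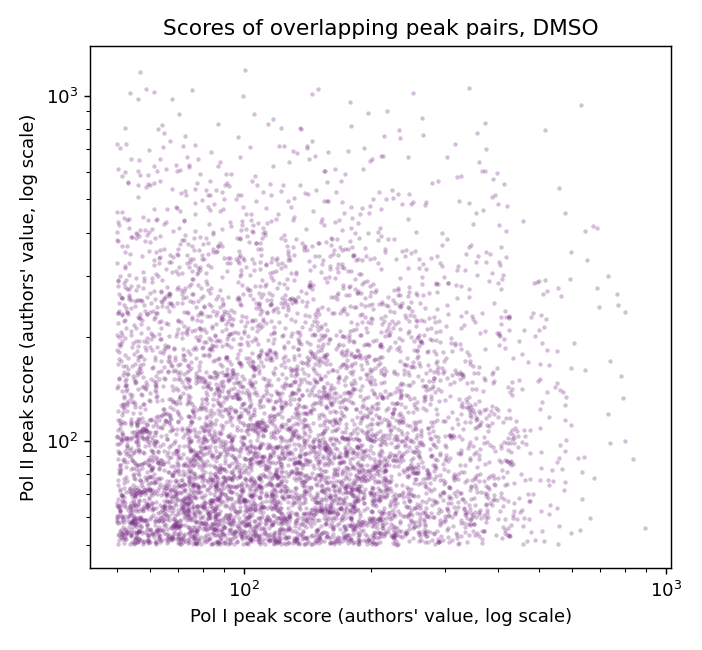
Score of the Pol I peak (x axis, log scale) against that of the overlapping Pol II peak (y axis, log scale), 1 point for each of the 6003 pairs in the DMSO lists; scores are the authors' values, without unit. The points fill the field with no visible slope, matching a Spearman's rho of 0.02.

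The sites that stood highest in both lists are given by the worse of their 2 ranks. On chromosome 7, the Pol I peak at 128170943 to 128172387 (score 630.14, rank 151) lay wholly inside the Pol II peak at 128170572 to 128172660 (score 940.23, rank 21). On chromosome 16, the Pol I peak at 23568176 to 23569386 (score 557.23) lay inside the Pol II peak at 23568150 to 23569388 (score 538.68), with midpoints 12 bp apart. On chromosome 8, the Pol I peak at 42396566 to 42397520 (score 517.48) had its midpoint 13 bp from that of the Pol II peak at 42396381 to 42397731 (score 794.69). In all 3 pairs the Pol I peak was the narrower and was covered from end to end.

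The other 5 of the 8 leading pairs were on chromosomes 22, 16, 16, 6 and 19. The pair on chromosome 22 had Pol I at 20104229 to 20105165 and Pol II at 20104077 to 20105450. On chromosome 16, Pol I at 85355270 to 85356303 was the wider peak over Pol II at 85355302 to 85356300, and Pol I at 31141984 to 31142791 lay inside Pol II at 31141599 to 31142864. The peaks at 109415953 to 109417230 (Pol I) and 109415676 to 109417048 (Pol II) on chromosome 6 had the largest midpoint offset of the 8, 229.5 bp. On chromosome 19, Pol I at 37959870 to 37960606 lay inside Pol II at 37959818 to 37960687. Across the 8 pairs the Pol I ranks ran from 84 to 623 and the Pol II ranks from 21 to 542, so no site was among the first 100 of both lists.

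The relation of overlap to rank differed between the lists at their top. Of the 100 Pol II peaks with the highest score, 58 (interval 47.7% to 67.8%) shared a base with a Pol I peak, and 426 of the first 1000 (42.6%, interval 39.5 to 45.7) did so. Of the 100 highest Pol I peaks, 15 (interval 8.65% to 23.5%) shared a base with a Pol II peak, and 192 of the first 1000 (19.2%, interval 16.8 to 21.8). High Pol II sites were thus often also listed Pol I sites, while high Pol I sites were mostly without a listed Pol II peak. In the whole lists the shares were 13.98% for Pol I and 20.5% for Pol II. The Pol I value lay inside the interval of its first 100 peaks but below that of its first 1000. In 10 classes of equal size by score, the Pol I share was 9.31% in the lowest and 20.3% in the highest. The Pol II share was 13.75% in the lowest class and 35.8% in the highest. The intervals of the 2 lists do not overlap for the first 100 or first 1000 peaks, but they cover counting error over peaks only. The Pol II list skips 48.1% of its numbers and the Pol I list 23.3%, and the part of this in the contrast was not tested.

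Width gave another difference. Each list was divided into 10 classes of equal size by width. The overlapped share of Pol I peaks was 9.89% at 103 to 321 bp, 19.1% at 615 to 733 bp and 17.7% (interval 16.6 to 18.9) from 734 bp. Among Pol II peaks it was 10.4% at 164 to 337 bp, 24.9% at 459 to 498 bp, 19.4% (interval 17.9 to 20.9) at 612 to 718 bp and 24.97% from 918 bp. The share did not follow width steadily for Pol II. Wider peaks also had higher scores in both lists, with a median of 254.8 in the widest class of Pol I against 56.72 in the narrowest and of 243.7 against 54.54 for Pol II. Among the higher-scored Pol II peaks, those from the median score upward, the overlapped share was 27.1% (interval 25.5 to 28.7) at 164 to 498 bp. It was 20.9% (interval 19.4 to 22.4) at 583 to 705 bp and 25.1% (interval 23.5 to 26.7) from 913 bp. Among the lower-scored ones it was 10.2% at 200 to 338 bp, 22.7% at 435 to 498 bp and 15.5% (interval 14.2 to 16.8) from 498 bp.

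Loci with a listed peak of only 1 polymerase made up a larger share of the Pol I list than of the Pol II list. Those of them with no skipped number of the other list around them made a smaller share of the whole Pol I list than of the whole Pol II list. No Pol II peak was listed within 10 kb of 28046 Pol I peaks (65.9%, interval 65.5 to 66.4), and no Pol I peak within 10 kb of 12329 Pol II peaks (42.8%, interval 42.2 to 43.4). The other list skipped no number around 3635 of these Pol I peaks (13.0%) and 5797 of these Pol II peaks (47.0%). They made 8.54% of the whole Pol I list and 20.1% of the whole Pol II list. Peaks with no skipped number around them were 6801 in the Pol I list and 16145 in the Pol II list. The 3635 peaks were a larger part of these 6801 than the 5797 peaks were of these 16145. The Pol II list skips 48.1% of its numbers and the Pol I list 23.3%, so the shares of the whole lists depend on what the lists leave out. Within 100 kb, 10560 Pol I peaks (24.8%) and 576 Pol II peaks (2.0%) had no listed neighbour of the other antibody. Of these, 736 and 147 had no skipped number around them. The Pol I peaks without a neighbour within 10 kb had a median score of 93.32 and a median width of 451 bp, against 119.62 and 503 bp for the overlapped ones. For Pol II the medians were 78.1 and 485 bp against 93.46 and 513 bp.

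The skipped numbers leave most of these Pol I loci undetermined. Where the other list skipped no number between its nearest listed peaks on either side, 5270 Pol I peaks (12.4%, interval 12.1 to 12.7) and 12586 Pol II peaks (43.7%, interval 43.1 to 44.3) had no peak of the other antibody over them, listed or skipped. For 31329 Pol I peaks (73.6%) and 10310 Pol II peaks (35.8%) at least 1 number was skipped nearby, or the chromosome ended first, and the presence of the other polymerase could not be read. This rests on the numbers following position, as all listed numbers do. The Pol I peaks without any Pol II peak were weaker and narrower, with a median score of 85.75 and a median width of 429 bp, than the undetermined ones, with 97.58 and 464 bp.

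**Figure D3:**
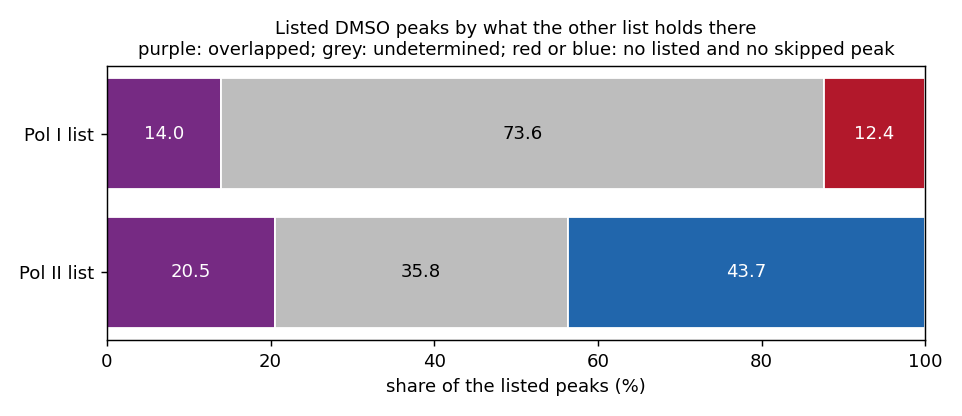
Share of listed DMSO peaks (x axis, percent) by what the list of the other antibody holds at the site, for the Pol I list (upper bar) and the Pol II list (lower bar). Purple is overlapped by a listed peak, grey is not overlapped but with skipped numbers nearby, and red or blue is not overlapped with no number skipped; the grey part is 73.6% for Pol I and 35.8% for Pol II.

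Over peaks where no number was skipped, the lists overlapped to a similar degree. There, 1531 of 6801 Pol I peaks (22.5%, interval 21.5 to 23.5) and 3559 of 16145 Pol II peaks (22.0%, interval 21.4 to 22.7) shared a base with the other list. The corresponding shares where 1 or more numbers were skipped were 12.4% (interval 12.0 to 12.7) of 35624 Pol I peaks and 18.5% (interval 17.9 to 19.2) of 12621 Pol II peaks. These shares describe the peaks of such stretches only.

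High-scored Pol I peaks without a listed Pol II partner stood where Pol II numbers were skipped more often than low-scored ones. Among Pol I peaks not overlapped, the share in a stretch with no skipped Pol II number was 16.1% (interval 15.0 to 17.3) in the lowest of 10 score classes, 17.6% in the next and 6.63% (interval 5.82 to 7.52) in the highest. The median length of the stretches was 271 kb in the lowest class and 177 kb in the highest. They held 6.06 skipped Pol II numbers per Mb in the lowest class and 8.61 in the highest. The part of length and of skipped density in these shares was not tested. For Pol II peaks not overlapped, the share was 55.4% (interval 53.4 to 57.4) in the lowest class and 55.4% (interval 53.1 to 57.6) in the highest. Of the 100 highest Pol I peaks, 39 had no listed Pol II peak within 10 kb. In a stretch with no skipped number were 0 of these 39, where 3 peaks would have made 7.69%. Of the 23 such peaks among the 100 highest Pol II peaks, 11 were in a stretch without a skipped Pol I number. All 39 are therefore undetermined.

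The 8 highest Pol I peaks with no listed Pol II peak within 10 kb had ranks from 5 to 17. The first was on chromosome 21 at 45079033 to 45080240 (score 1031.38), 61.2 kb from the nearest Pol II midpoint. The next, chr2:237994197-237994944, scored 1026.04. The farthest from Pol II was chr18:71293171-71294139 (score 1013.89), whose nearest Pol II midpoint was at 107 kb. The nearest to Pol II was chr16:1832290-1833313 (score 986.62), at 21.3 kb. The remaining 4 were chr9:135819663-135820485, chr3:135913905-135916176, chr5:71615600-71616652 and chr20:47537956-47538852, with scores from 951.71 down to 870.28. The peak on chromosome 3 was the widest of the 8, at 2272 bp. Around each of the 8, the Pol II list skipped 3 to 5 numbers.

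Of the 8 highest Pol II peaks with no listed Pol I peak within 10 kb, several were broad. The peak on chromosome 19 at 23510022 to 23514845 was 4824 bp wide (score 1231.6, rank 3), and the one on chromosome 5 at 107499023 to 107504972 was, with 5950 bp, the widest of the Pol II list. The others were chr8:22461772-22463608, chr9:80933686-80936884, chr19:41111001-41112556, chr2:238423669-238427207, chr21:33984454-33986066 and chr1:46879859-46883061, with widths from 1556 to 3539 bp. The peak on chromosome 5 was the only one of the 8 with 0 skipped Pol I numbers around it, and its nearest Pol I midpoint was 26.8 kb away. The other 7 had 1 or 2 skipped Pol I numbers around them.

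The BMH-21 lists bear on the skipped numbers. A DMSO list and the BMH-21 list of the same antibody had 0 bases in common for either antibody, and 3 peaks would have made 0.00705% of the Pol I list and 0.0104% of the Pol II list. Whether the skipped numbers are peaks common to both treatments was not tested. Of the DMSO Pol I peaks without a listed DMSO Pol II peak, 1010 lay under a BMH-21 Pol II peak. Of these, 189 (18.7%) were in a stretch with no skipped DMSO Pol II number, against 14.4% of all DMSO Pol I peaks not overlapped. In the reverse direction, 65 DMSO Pol II peaks not overlapped in DMSO lay under a BMH-21 Pol I peak. No DMSO Pol I number was skipped around 40 of them (61.5%), against 55.0% of all DMSO Pol II peaks not overlapped. At the 189 Pol I sites Pol II was listed after BMH-21 with no DMSO Pol II peak numbered there. Of all 1036 DMSO Pol I peaks under a BMH-21 Pol II peak, 26 (2.51%) overlapped a listed DMSO Pol II peak, against 13.98% of the whole list. The 2 Pol II lists had 0 bases in common, which by itself limits such overlap. A gain of Pol II at the 189 sites was not tested.

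Over 1 Mb bins the listed peak densities of both antibodies went together. In 2895 bins with a peak of either list, Spearman's rho between peak numbers was 0.75 and Pearson's r 0.62, and without the 2 bins farthest from the Pol II median they were 0.75 and 0.63. The bins come from 2 libraries of the same cell line, so the values are a description. Within single autosomes rho ran from 0.67 to 0.85. It was 0.47 on chromosome X and 0.05 over the 28 bins of chromosome Y. At 100 kb rho was 0.25 and r was 0.30, over 19924 bins with a peak of either list. Bins empty in both lists were left out at both sizes, and smaller bins hold fewer peaks. The part of these 2 points in the lower values was not tested.

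Pol I peaks were spread more evenly than Pol II peaks. A bin held a median of 14 Pol I peaks (quartiles 8 and 20, highest 53) and of 5 Pol II peaks (quartiles 2 and 12, highest 154). The 10% of bins with the most peaks of a list held 21.8% of the Pol I list and 44.1% of the Pol II list. Listed Pol I peaks outnumbered listed Pol II peaks in 2367 bins (81.8%), and the reverse held in 440 (15.2%). The ratio of the whole lists was 1.48, against 1.00 by the highest numbers, and skipped peaks are not in these counts. There were 214 bins with Pol I peaks only, holding 1020 peaks and at most 18 each, and 9 bins with Pol II peaks only, holding 9 peaks.

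**Figure D4:**
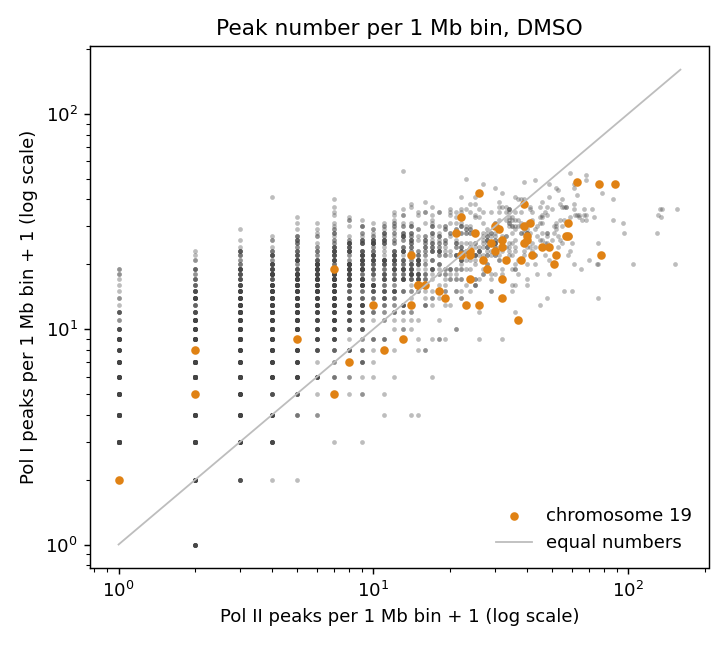
Pol I peaks (y axis) against Pol II peaks (x axis) per 1 Mb bin, with 1 added to each and both axes on a log scale, 1 point for each of 2895 bins of the DMSO lists. Orange points are bins of chromosome 19 and the grey line marks equal numbers; most bins lie above the line, while those with the most Pol II peaks, up to 154, lie below it.

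The bins richest in both were on chromosomes 16, 17 and 19, which are known as gene-dense. The first 1 Mb of chromosome 16 held 52 Pol I and 58 Pol II peaks, the bin from 79 to 80 Mb of chromosome 17 held 51 and 67, and that from 30 to 31 Mb of chromosome 16 held 48 and 67. On chromosome 19 the bin from 2 to 3 Mb held 47 and 62, that from 1 to 2 Mb 46 and 88, and that from 58 to 59 Mb 46 and 76. The number of Pol I peaks that overlapped a Pol II peak varied among these 6 bins. It was 14 of 51 in the bin of chromosome 17, and 7 of 52 and 8 of 48 in those of chromosome 16. On chromosome 19 it was 11 of 47, 4 of 46 and 10 of 46, in the order given.

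Bins with the largest Pol I excess, taken as the difference of each list's share, held 32 to 53 Pol I peaks, above the third quartile of 20, and 3 to 12 Pol II peaks, no more than the third quartile of 12. The bin from 102 to 103 Mb of chromosome 4 held 40 Pol I and 3 Pol II peaks, and that from 17 to 18 Mb of chromosome 21 held 53 Pol I peaks, the most of any bin, and 12 Pol II peaks. The bin from 90 to 91 Mb of chromosome 5 held 39 and 6, from 128 to 129 Mb of chromosome 8 it was 36 and 6, and on chromosome 7 the bins from 16 to 17 and from 26 to 27 Mb held 32 and 4, and 34 and 6. In the last of these no Pol I peak overlapped a listed Pol II peak.

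The Pol II excess was several times greater. The bin from 25 to 26 Mb of chromosome 10 held 152 Pol II and 19 Pol I peaks, so its share of the Pol I list less its share of the Pol II list was -0.483 percentage points. The largest Pol I excess was 0.0836 points. The bin from 89 to 90 Mb of chromosome 16 held 154 Pol II and 35 Pol I peaks, and that from 62 to 63 Mb of chromosome 10 held 133 and 32. Those from 107 to 108 Mb of chromosome 5, 38 to 39 Mb of chromosome 14 and 174 to 175 Mb of chromosome 3 held 135 and 35, 128 and 27, and 132 and 35. All 6 still had Pol I numbers above the median of 14.

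Dense runs were defined as 10 or more Pol II peaks with no gap over 10 kb. The 260 runs spanned 13.4 Mb and held 5125 Pol II peaks (17.8%) and 514 Pol I peaks (1.21%). Runs are picked for dense Pol II peaks, so the larger Pol II share follows from the definition. Pol I density was nevertheless higher inside runs, at 38.3 per Mb, than outside, at 14.04 per Mb. By the same definition the Pol I list had 11 runs with 138 peaks (0.324%), of which 2 touched a Pol II run.

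Inside runs, Pol I bases lay under Pol II peaks little more often than the cover of Pol II peaks there. Pol II peaks covered 25.2% of the run length, and 31.1% of the Pol I bases in runs were under them, a ratio of 1.23. Outside runs they covered 0.449% of the span and 11.5% of the Pol I bases, a ratio of 25.7. Both ratios are capped by the inverse of the cover, so the ceiling is far lower inside runs and they are not on a like scale. The share of Pol I bases itself was higher inside runs. Of the Pol II peaks in runs, 206 (4.02%, interval 3.498 to 4.59) shared a base with a Pol I peak, against 5696 of 23673 (24.1%, interval 23.5 to 24.6) outside. Counted from Pol I the order was the opposite: 205 of the 514 Pol I peaks in runs (39.9%, interval 35.6 to 44.3) were overlapped, against 13.7% (interval 13.3 to 13.995) outside. No Pol I peak at all was listed in 75 of the 260 runs, and the most in a run was 11. Runs held 5125 Pol II peaks against 514 Pol I peaks, and nearly all shared sites join 1 peak of each list. The low Pol II share and the high Pol I share in runs therefore follow in part from the definition. The definition of a run was chosen with these data known.

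Stretches with listed peaks of 1 polymerase differed in length. There were 526 stretches between neighbouring Pol II peaks that held 10 or more Pol I peaks, with a median length of 737 kb and 6846 Pol I peaks in all (16.1% of the list). The 280 stretches between neighbouring Pol I peaks with 10 or more Pol II peaks had a median length of 72.1 kb and held 4502 Pol II peaks (15.6%). Only 8 of the 526 had no skipped Pol II number, against 147 of the 280 with no skipped Pol I number. A stretch had to hold 10 or more peaks of 1 list, so its length also depends on the spacing within that list. The median gap was 32.1 kb in the Pol I list and 12.2 kb in the Pol II list. The part of this spacing in the longer Pol I stretches was not tested. In all but 8 of the 526 the presence of unlisted Pol II peaks is undetermined.

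The longest Pol I stretch ran over 32.6 Mb of chromosome Y, from 26726384 to 59355105, with 17 peaks and a gap of 30.4 Mb without any peak of either list. The next were on chromosome 7 from 57651790 to 63808769 (15 peaks, with a peak-free gap of 3.51 Mb), chromosome 4 from 178731375 to 183823698 (14 peaks) and chromosome X from 29645877 to 34400567 (12 peaks) and from 24184696 to 28907947 (16 peaks). In these 5 the Pol II list skipped 4 to 7 numbers. The stretch without a skipped number that held the most Pol I peaks, named after its values were seen, was on chromosome 9 from 3677262 to 4489953, with 16 peaks over 813 kb.

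The longest Pol II stretches were on chromosome 13 from 95097544 to 95687930 (11 peaks, 0 skipped Pol I numbers), chromosome 19 from 8943438 to 9517384 (16 peaks), chromosome 9 from 94600817 to 95156064 (24 peaks), chromosome 5 from 33338161 to 33721634 (13 peaks) and chromosome 8 from 145158563 to 145515151 (11 peaks). The stretch without a skipped Pol I number that held the most Pol II peaks, named after the values were seen, held 59 Pol II peaks over 186 kb of chromosome 4, from 151644734 to 151831091. It was followed by 49 peaks on chromosome 15 from 93493231 to 93592067 and 40 on chromosome 5 from 107321317 to 107419879.

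Chromosomes differed in their balance of the polymerases. Listed Pol I peaks outnumbered Pol II peaks on 22 of 24 chromosomes, with a ratio of up to 2.002 on chromosome 8, 1.93 on chromosome 4 and 1.89 on chromosome 18. The exceptions were chromosome 19, with 1200 Pol I and 1725 Pol II peaks (a ratio of 0.696), and chromosome 16, with 1396 and 1534 (0.910). By running numbers, which include the skipped peaks between the first and the last listed one, Pol I led on 14 of 24 chromosomes. Counted so, the lowest ratio was 0.532 (chromosome 19) and the highest 1.26 (chromosome 18). Chromosomes 19, 16, 17 and 22 had the lowest ratios on both counts, whereas the lead of Pol I on chromosomes such as 1 and X (1.43 and 1.62 by listed peaks) was not seen by numbers (0.977 and 0.960).

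**Figure D5:**
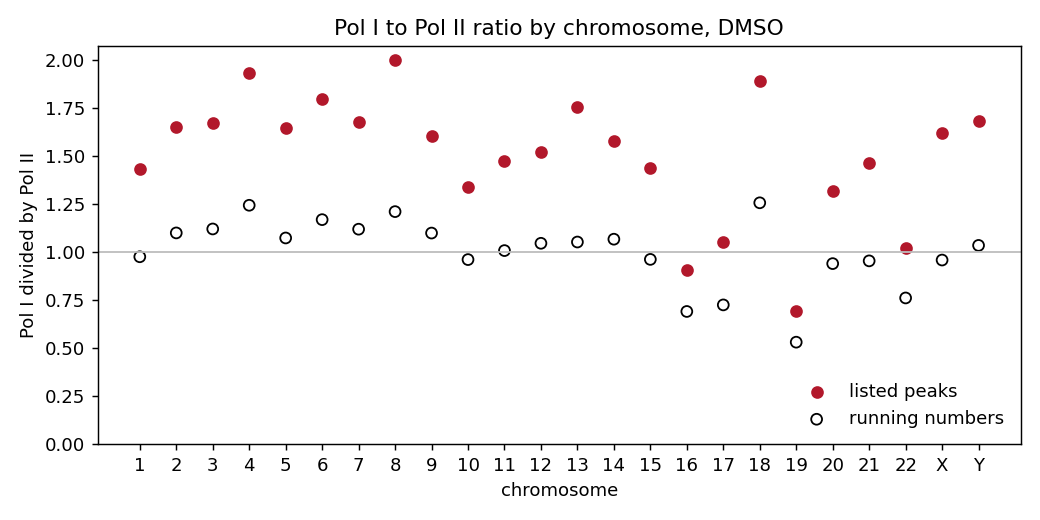
Pol I divided by Pol II (y axis) for each chromosome (x axis) in the DMSO lists, as listed peaks (filled red points) and as running numbers from the first to the last listed peak (open circles); the grey line marks equality. Chromosome 19 is lowest on both, at 0.696 and 0.532.

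The overlapped share also differed among chromosomes. Pol I peaks were overlapped most often on chromosomes 22 (18.9%, interval 15.9 to 22.2), 19 (18.3%, interval 16.2 to 20.6) and 16 (17.5%, interval 15.5 to 19.6), and least on chromosome Y (10 of 172 peaks, 5.81%, interval 2.82 to 10.4). Pol II peaks were overlapped most often on chromosomes 8 (25.8%, interval 23.2 to 28.5) and 18 (25.5%, interval 21.9 to 29.5), and least on chromosome Y (9.80%, interval 4.80 to 17.3) and chromosome 19 (12.8%, interval 11.2 to 14.4). Since nearly all shared sites count once in each list, the shares of a chromosome stand in the inverse ratio of its peak numbers by construction. By local density, the Pol I share went from 10.03% (interval 9.48 to 10.6) in bins with 1 to 4 Pol II peaks to 18.8% (interval 17.3 to 20.5) in bins with 50 or more. The Pol II share was 26.0% (interval 24.0 to 28.05) in bins with 5 to 9 Pol I peaks and 14.2% (interval 13.3 to 15.1) in bins with 30 or more.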

How the data were processed

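ChIP-seq peak lists of 2 DMSO libraries were compared, and the 2 BMH-21 lists were used for shared positions only. The inputs are not analysed here. Each list deposited by the authors holds peaks with a score, which per the file headers is a p-value but starts at 50, so its scale is not stated. It was used to rank or filter peaks within a list. Per the submitters' processing notes, the tools were CASAVA 1.8.2, Bowtie2 2.2.1 and deepTools 3.5.4 and the build hg19. Peak names begin with MACS, but for the settings, the use of input and the reason for skipped numbers the answer is: not given in the sources used here.

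Starts were taken as zero-based and are printed as 1-based. Overlap was 1 bp or more. Span is the distance from the first to the last listed peak of either list, summed over chromosomes. Skipped numbers were counted between the nearest listed peaks of the other list that do not overlap the peak. The interval functions were checked on simulated data. Gene tables of GRCh38 were not used, so the planned gene-start, gene-list and marker counts were not made and no sequence is printed.

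Named regions are the 8 overlapping pairs with the best worse-of-2 rank, the 8 highest-scored peaks of each list with no other-antibody peak within 10 kb, the 6 bins leading in both and in excess of each antibody, and the 5 longest stretches with 10 or more peaks of 1 antibody and none of the other. The stretches with no skipped number were chosen after their values were seen. Rules, lists and the comparison were chosen with earlier results of these data known. Python 3.11.15, NumPy 2.4.6, pandas 2.3.3, SciPy 1.17.1 and matplotlib 3.10.9 were used.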

Additional observations from a re-analysis of the deposited data

How the results depend on the processing

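Of 54 alternative values over 8 results, 25 stayed within the interval of the main value, or for a correlation within 0.1, and 29 did not. Asking for 50% of the shorter peak gave overlapped shares of 13.4% (Pol I) and 19.7% (Pol II), a reach of 1000 bp gave 18.1% and 26.6%, and the midpoint rule gave 13.2% and 18.4%. With scores at or above each list's median it was 10.5% and 15.6%, and with peaks joined into loci 14.6% and 25.1%. Without dense Pol II runs the Pol II share was 24.1%. Where no number was skipped, an alternative added after the data were seen, the shares were 22.5% and 22.0%. The median distance from Pol I to Pol II was 56.5 kb at the stricter score, and from Pol II to Pol I 7.27 kb edge to edge, 15.3 kb at the stricter score and 8.32 kb for peaks of at least 300 bp. Bins of 100 kb gave correlations of 0.25 (Spearman) and 0.30 (Pearson), over 19924 bins with a peak of either list. The share without a peak of the other list within 1, 50 and 100 kb was 81.9%, 39.4% and 24.8% (Pol I) and 73.4%, 7.62% and 2.0% (Pol II). Within 10 kb it was 74.7% and 58.2% at the stricter score. It was 8.54% and 20.1% of the whole lists when only peaks with no skipped number around them were counted. Stricter scores leave fewer peaks, which lengthens distances by construction, and wider windows find more neighbours. The 3 alternatives for gene starts were not run for want of an annotation on the build of the peaks. No paired analysis was possible because each antibody has 1 library. Depth is unknown, so faint sites of either polymerase cannot be told from absent ones.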
